A study of Arabidopsis thaliana with 30 samples.

Results

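The genes described here are very short: their annotated exons sum to at most 400 bases, and their level averaged at least 1 CPM (a gene's count scaled by the library's total count) over all 30 libraries. They were chosen by those measured levels and the annotated length, after 8 named loci and the plastid and mitochondrial genes had been left out, and 88 of the 32833 genes in the table met the rule. They were set beside the 18932 remaining nuclear genes at the same level, all of which are longer than 400 bases. The samples were 5-day-old Arabidopsis thaliana seedlings moved to MS liquid medium with 50 µM ABA (abscisic acid, a stress hormone) or without it (mock) for 3 h, and the RNA libraries were poly(A)-enriched.

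The 5 genotypes were dxo1, a T-DNA insertion mutant of DXO1; DXO1-C/dxo1 (dxo1/cDXO1 in the study), which carries the catalytic C-terminal domain in the dxo1 mutant; rnmt1 (rnmt1-3), a weak CRISPR/Cas9 allele of the cap methyltransferase gene RNMT1; DXO1-N/dxo1 (dxo1/NTE), which carries only the N-terminal extension of DXO1 in the dxo1 mutant; and WT (Col-0). Both transgenes were driven by the DXO1 promoter, and both lines share the dxo1 insertion. Each genotype had 3 mock and 3 ABA libraries, described as biological replicates. DXO1 reads averaged 21.4 CPM in dxo1, 220 CPM in DXO1-C/dxo1, 44.96 CPM in rnmt1, 247 CPM in DXO1-N/dxo1 and 44.6 CPM in WT under mock. A count summed over the whole gene does not separate the inserted allele or either partial transgene from intact DXO1, nor the rnmt1 allele from intact RNMT1. RNMT1 averaged 14.5 CPM in rnmt1 and 19.2 CPM in WT under mock. Every rnmt1 library was under every WT library, both under mock and after ABA. In DXO1-N/dxo1 after ABA the RNMT1 libraries spread over 35.7, 60.3 and 21.0 CPM, against 18.4, 16.4 and 17.7 CPM in WT.

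DXO1 removes NAD and other noncanonical caps from RNA, and through its N-terminal extension it acts with RNMT1 in placing the m7G cap that protects mRNA and recruits the translation machinery. Genes this short fall into a few kinds. Small nucleolar RNAs (snoRNAs) guide the chemical modification of rRNA, and in plants many are processed from polycistronic clusters or from introns. MicroRNA genes give hairpin precursors that are cut to small RNAs which repress their target mRNAs, and the shortest protein-coding genes encode ribosomal, mitochondrial and secreted cysteine-rich peptides.

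Among the 88 genes, 39 were protein-coding (44.3%), 26 were snoRNAs (29.5%), 9 were microRNA genes (10.2%), 7 were lncRNAs, 6 were other ncRNAs and 1 was an rRNA. The remaining genes were 99.1% protein-coding, with 0 snoRNAs and 1 microRNA gene. The short genes ran from 66 to 398 bases (median 231.5), against a median of 1808 bases in the remaining genes, and 58 of them consisted of a single exon block. They had weak signals: the median level was 1.97 CPM (remaining genes, 19.6 CPM), and 66 of 88 (75%) were under 5 CPM, where 18.3% of the remaining genes lay. At 1 CPM a library of this series held on average 20.01 counts, so that counting error alone gave a relative SD of 22.4%. The median SD of log2 CPM within a group was 0.26 for the short genes and 0.12 for the remaining genes. Median GC content was 40.9% in the short genes and 41.1% in the remaining genes, and it was lowest in the snoRNAs (37.8%).

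**Figure D1:**
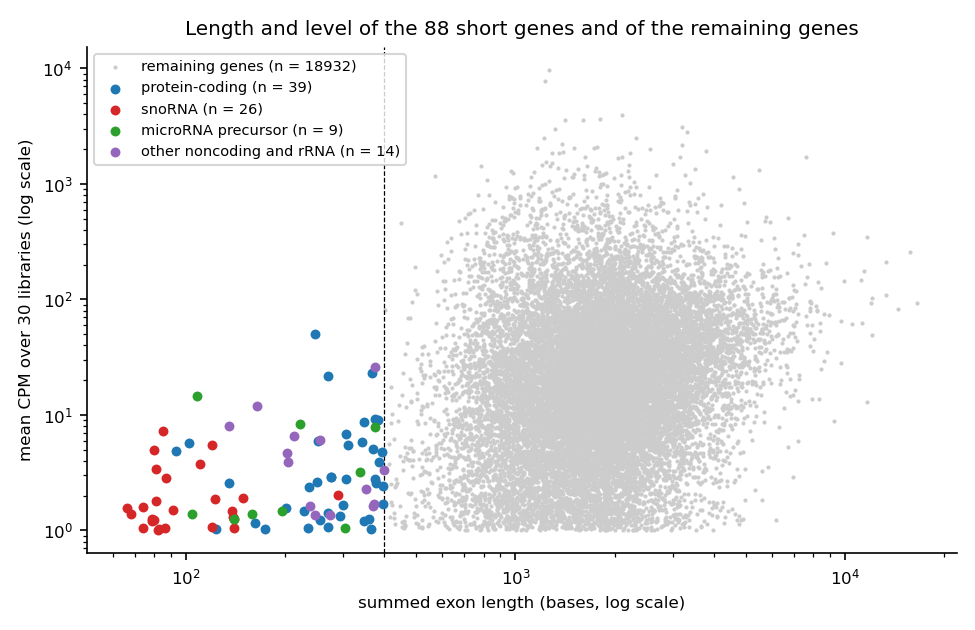
Summed exon length in bases (x axis, log scale) against mean CPM over the 30 libraries (y axis, log scale), 1 point per gene; grey points are the 18932 remaining genes and coloured points the 88 short genes by annotated type, with a dashed line at 400 bases. The snoRNAs (66 to 290 bases) sit at the short end, and most short genes lie near the lower limit of 1 CPM.

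Close to the length limit, AT5G54165 and JAX1 (AT1G58160, a jacalin-type lectin) at 396 bases and the lncRNA AT4G06195 at 398 bases were inside, and AT2G25210 at 402 bases was outside at a mean of 81.3 CPM. Close to the level limit, the snoRNA AT1G74456 at 1.01 CPM was inside and AT1G14642 at 0.982 CPM was outside. Because the rule used the mean over all genotypes, 62 of the 88 reached 1 CPM in each of the 5 genotypes, and 12 would have fallen under 1 CPM without the libraries of a single genotype. AT2G11405 (0.00185 CPM without dxo1), AT1G64795, AT5G03090 and MIR863 (0.894, 0.736 and 0.874 CPM without rnmt1) and AT1G09087 (0.982 CPM without DXO1-C/dxo1) are among these 12. A difference that favours the genotype through which such a gene entered is given below as values with no test. Likewise MIR156c, at 0.233 CPM in WT under mock, reached the limit through the mutants. AT3G06955, at 0.104 CPM in dxo1, 0.0831 CPM in DXO1-C/dxo1 and 0.831 CPM in DXO1-N/dxo1 under mock, reached it through rnmt1 and WT. AT5G54165 and AT2G04805, at 0.071 and 0.632 CPM in WT under mock, reached it through their ABA libraries. Their differences in those directions are a description only.

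Total counts per library were 17961410 to 23249299, of which 6515 to 11343 fell on the short genes. Shoot markers (RBCS1A, RCA and LHCB1.3) summed to 18370 to 24280 CPM, root markers (COBL9, EXPA7 and CASP1) to 20.9 to 46.2 CPM, and the dry-seed markers CRU3 and SESA3 to at most 2.51 CPM. The root sum moved with genotype: it was 43.2 to 44.6 CPM in dxo1, 40.5 to 46.2 CPM in DXO1-C/dxo1, 23.9 to 30.8 CPM in rnmt1, 32.5 to 42.1 CPM in DXO1-N/dxo1 and 20.9 to 42.5 CPM in WT under mock, and 38.9 to 46.0 CPM in dxo1, 38.3 to 39.5 CPM in DXO1-C/dxo1, 25.7 to 27.0 CPM in rnmt1, 34.0 to 39.6 CPM in DXO1-N/dxo1 and 32.4 to 38.6 CPM in WT after ABA. Its part in the differences below was not tested. WT mock replicate 1 stood apart from the other WT mock libraries: the median within-group SD of log2 CPM was 0.43 for the short genes and 0.21 for the remaining genes in WT mock, against 0.22 to 0.27 and 0.10 to 0.13 in the other groups. The whole-set counts against WT under mock and the count for ABA in WT are given with and without it. Other counts and shares that rest on it are given only with it. In 17 short genes an exon overlaps another annotated gene, 7 on the same strand and 11 on the opposite strand; whether counting used strand is not given in the sources used here, so their values are uncertain.

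The snoRNA genes were the largest noncoding group, and their sequences show how far the annotated types can be recognised. Box C/D snoRNAs carry a C box near the 5′ end and a D box near the 3′ end. The sequences below are the 3 most abundant members and 3 others to which the results return, from the TAIR10.1 assembly in RefSeq, with the first TGATGA and the last CTGA after it in capitals. In AT2G08765 the marked TGATGA lies close to the CTGA and far from the 5′ end, so the marked letters do not have that layout.
AT3G47348 (chr3:17445963-17446047, plus strand): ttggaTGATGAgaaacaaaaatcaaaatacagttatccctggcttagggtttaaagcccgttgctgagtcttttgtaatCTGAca
AT4G39366 (chr4:18305585-18305704, plus strand): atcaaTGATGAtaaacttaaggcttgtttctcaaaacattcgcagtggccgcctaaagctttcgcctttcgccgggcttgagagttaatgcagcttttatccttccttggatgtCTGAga
AT2G08765 (chr2:15029575-15029654, minus strand): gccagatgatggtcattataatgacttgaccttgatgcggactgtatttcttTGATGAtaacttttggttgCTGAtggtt
AT1G74453 (chr1:27984604-27984713, minus strand): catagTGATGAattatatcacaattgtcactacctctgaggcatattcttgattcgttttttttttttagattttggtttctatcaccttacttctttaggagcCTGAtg
U60.1F (AT5G52471, chr5:21295736-21295809, plus strand): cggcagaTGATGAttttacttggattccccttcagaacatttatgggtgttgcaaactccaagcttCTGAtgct
AT1G09087 (chr1:26190603-26190685, plus strand, neither motif): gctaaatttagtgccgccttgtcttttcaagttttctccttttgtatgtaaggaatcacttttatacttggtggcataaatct

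TGATGA followed by CTGA was found, at any distance from the ends, on the transcribed strand of 17 of the 26 snoRNA genes (65.4%) and on the other strand of 0 of 26. The same order of letters was present in 0.61% of 1401718 windows of 85 bases over the genome and in 3 of the 62 other short genes. The other 9 snoRNA genes did not have these letters in this order, which says nothing further about their class. Of the 26, 19 had another snoRNA of this set within 500 bases on the same strand, and 4 lay inside an intron of another gene.

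The snoRNA genes had low levels (median 1.49 CPM, highest 7.25 CPM). Under mock, 0 of 26 were higher and 1 was lower in dxo1 than in WT, 0 were higher and 3 were lower in DXO1-C/dxo1, and 0 of 26 moved in rnmt1 or in DXO1-N/dxo1. After ABA the counts against WT were 0 higher and 4 lower in dxo1, 2 and 3 in DXO1-C/dxo1, 2 and 1 in rnmt1, and 0 and 2 in DXO1-N/dxo1. Of the remaining genes at 1 to 5 CPM, 15.6%, 14.3%, 11.1% and 0.8% passed under mock and 26.4%, 27.8%, 21.8% and 4.23% after ABA in the same order of genotypes, in either direction. Over all 14 comparisons, 11 of the 26 passed the test at least once, where 76.7% of all genes tested and 65.4% of remaining genes at 1 to 5 CPM did. Here and below, a gene passed when its adjusted p in edgeR's quasi-likelihood test (Benjamini-Hochberg over all genes tested) was under 0.05.

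The most abundant snoRNA gene, AT3G47348, had 7.15, 5.86 and 8.96 CPM in dxo1, 7.10, 8.09 and 7.88 CPM in rnmt1 and 5.34, 6.30 and 4.89 CPM in WT after ABA. All 3 rnmt1 libraries lay above all 3 WT libraries, and those of dxo1 overlapped WT. Its log2 fold change in rnmt1 was 0.57 ± 0.15 (SE; edgeR adjusted p = 0.00948).

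AT1G74453, chosen after its values were seen, was the snoRNA that passed the test as lower under mock in both dxo1 and DXO1-C/dxo1. It had 3.54, 4.44 and 3.41 CPM in dxo1, 2.32, 2.75 and 3.37 CPM in DXO1-C/dxo1, and 7.92, 5.29 and 5.90 CPM in WT, with no overlap between mutant and WT libraries. The log2 fold changes were -0.78 ± 0.22 in dxo1 (edgeR adjusted p = 0.0373) and -1.16 ± 0.24 in DXO1-C/dxo1 (adjusted p = 0.0102). In rnmt1 its 5.13, 4.15 and 4.34 CPM were also all under the WT values, but the difference did not pass the test. The DXO1-N/dxo1 libraries (3.61 to 3.90 CPM) lay under all WT values too. Their log2 fold change of -0.84 ± 0.22 did not pass (edgeR adjusted p = 0.0849). The call in dxo1 held in 2 of the 6 fits that left out 1 library. AT4G39366 and AT2G08765 passed in none of the 14 comparisons.

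The snoRNA AT3G04175, also chosen after its values were seen, was lower than WT in every mutant after ABA. Its libraries read 0.630, 0.633 and 1.18 CPM in dxo1, 0.619, 0.456 and 0.917 CPM in DXO1-C/dxo1, 1.08, 0.766 and 0.953 CPM in rnmt1, 0.737, 0.700 and 1.03 CPM in DXO1-N/dxo1, and 1.76, 2.24 and 2.60 CPM in WT. No mutant library reached the lowest WT library, and the log2 fold changes were between -1.60 and -1.14 (edgeR adjusted p 0.00186 to 0.016). Under mock the WT libraries spread from 1.00 to 2.50 CPM, and none of the mutants differed by the test.

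Intronic snoRNA genes could be set beside the mRNA of the gene that contains them. U60.1F lies in an intron of FIB1 (AT5G52470, fibrillarin, the methyltransferase of box C/D particles), and AT1G09083 and AT1G09087 lie in introns of RPL34 (AT1G69620, a protein of the large ribosomal subunit). FIB1 averaged 597 ± 18 CPM in dxo1, 536 ± 32.0 CPM in DXO1-C/dxo1, 530 ± 23.7 CPM in rnmt1, 247 ± 14.1 CPM in DXO1-N/dxo1 and 269 ± 25.2 CPM in WT under mock (SD, n = 3 libraries each). Its log2 fold change was 1.12 in dxo1 (edgeR adjusted p = 0.000451), 1.02 in DXO1-C/dxo1 (adjusted p = 0.000736) and 1.00 in rnmt1 (adjusted p = 0.00116), and in DXO1-N/dxo1 it was -0.20 (adjusted p = 0.37). RPL34 was likewise higher in the first 3 mutants, with log2 fold changes of 0.79, 0.82 and 0.84.

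The snoRNAs inside these genes did not pass the test in any mutant under mock. U60.1F had 1.51, 2.06 and 1.46 CPM in dxo1, 2.02, 1.37 and 2.50 CPM in DXO1-C/dxo1, 2.04, 2.59 and 2.30 CPM in rnmt1, and 0.372, 1.82 and 2.12 CPM in WT under mock. All groups overlapped WT, of which replicate 1 was the lowest. AT1G09083 had 1.36, 0.611 and 0.904 CPM in dxo1 and 2.02, 1.23 and 2.17 CPM in WT under mock, and no mutant differed from WT by the test. AT1G09087, which entered the set through DXO1-C/dxo1, had 0.857, 1.67 and 1.21 CPM in DXO1-C/dxo1 and 0.321, 0.520 and 0.917 CPM in WT after ABA, which overlapped. A p that misses the threshold at these levels does not show that the snoRNA loci were equal between genotypes. Mature snoRNAs lack a poly(A) tail, and what share of their reads came from precursor or intron-containing RNA was not tested.

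**Figure D2:**
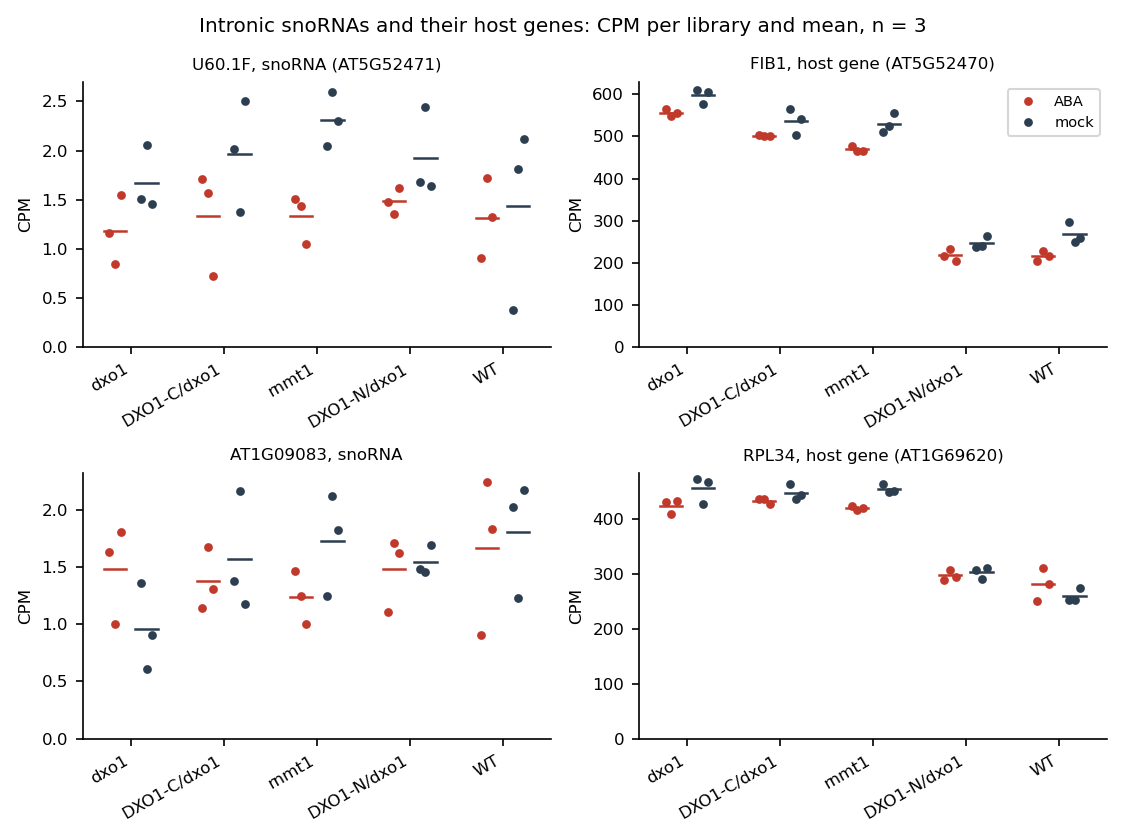
CPM per library (points, ABA in red and mock in dark blue) and group mean (line), n = 3 libraries per group, for 2 intronic snoRNA genes on the left and their host genes on the right; y axes start at 0 and differ in scale. FIB1 and RPL34 are higher in dxo1, DXO1-C/dxo1 and rnmt1 than in WT, while the points of U60.1F and AT1G09083 overlap between genotypes.

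The 9 microRNA genes were MIR414, MIR850, MIR5642a, MIR822, MIR159b, MIR156c, MIR4228, MIR162a and MIR863. Reads of a poly(A) library on these loci come from primary transcripts and not from the small RNAs. The mature sequences of the 4 genes that carry most of the results are given first, with the seed (bases 2 to 8) in capitals, in the DNA letters of the TAIR10.1 genome.
miR156c-5p (AT4G31877, chr4:15415491-15415510, minus strand): tGACAGAAgagagtgagcac
miR156c-3p (AT4G31877, chr4:15415426-15415447, minus strand): gCTCACTGctctatctgtcaga
miR414 (AT1G67195, chr1:25137519-25137539, minus strand): tCATCTTCatcatcatcgtca
miR850 (AT4G13493, chr4:7845756-7845777, plus strand): tAAGATCCggactacaacaaag
miR5642a (AT3G06345, chr3:14197116-14197135, plus strand): tCTCGCGCttgtacggcttt

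RefSeq annotates 15 mature microRNAs on the 9 genes, with 15 distinct seeds, so no seed was shared within the set. The annotated MIR156c exon is the hairpin itself, shown with its 5p and 3p arms in capitals because this is the locus on which the counted reads fell.
MIR156c precursor (AT4G31877, chr4:15415418-15415521, minus strand): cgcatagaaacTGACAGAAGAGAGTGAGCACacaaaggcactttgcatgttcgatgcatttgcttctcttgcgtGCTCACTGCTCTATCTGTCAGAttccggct

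MIR156c, whose microRNA represses SPL transcription factors and so holds the plant in the juvenile phase, was the microRNA locus that moved furthest. Under mock it had 1.94, 1.44 and 1.31 CPM in dxo1, 2.17, 1.72 and 1.89 CPM in DXO1-C/dxo1, 3.54, 2.36 and 2.61 CPM in rnmt1, 0.690, 0.781 and 1.14 CPM in DXO1-N/dxo1, and 0.213, 0.320 and 0.167 CPM in WT. Every mutant library was above every WT library, with rnmt1 highest and DXO1-N/dxo1 lowest among the mutants. The log2 fold changes against WT were 2.68 in dxo1, 3.04 in DXO1-C/dxo1, 3.59 in rnmt1 and 1.80 in DXO1-N/dxo1. After ABA the values were 1.63, 1.11 and 1.13 CPM in dxo1, 1.48, 1.11 and 1.59 CPM in DXO1-C/dxo1, 2.45, 3.02 and 2.86 CPM in rnmt1, 0.737, 1.01 and 0.702 CPM in DXO1-N/dxo1, and 0.374, 0.208 and 0.153 CPM in WT, again without overlap. After ABA the log2 fold changes were 2.41, 2.60, 3.56 and 1.74 in the same order of genotypes. WT held 3 to 6 counts per library under mock and 3 to 7 after ABA, so MIR156c reached the level limit through the mutants. Higher levels in the mutants were thus built into its selection, and these differences are a description only.

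MIR414 was the microRNA locus with the highest level, and per length it ranked second in the whole set at 136 RPKM (CPM divided by the exon length in kilobases). It had 16.1, 16.7 and 14.6 CPM in dxo1, 19.1, 19.9 and 17.9 CPM in rnmt1, 11.9, 8.43 and 9.82 CPM in DXO1-N/dxo1, and 14, 8.70 and 9.69 CPM in WT under mock. All rnmt1 libraries were above WT, with a log2 fold change of 0.83 ± 0.20 (edgeR adjusted p = 0.0209); this call held in 1 of 6 fits without a library. The dxo1 libraries also lay above WT, and their log2 fold change of 0.52 ± 0.20 did not pass (edgeR adjusted p = 0.0908). After ABA rnmt1 remained above WT (22.7, 19.1 and 17.3 CPM in rnmt1, 14.6, 15.4 and 15.8 CPM in WT; log2 fold change 0.47 ± 0.11, edgeR adjusted p = 0.00569).

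MIR850 and MIR5642a went the other way. Under mock MIR850 had 7.82, 6.83 and 4.22 CPM in dxo1, 6.40, 5.25 and 4.59 CPM in DXO1-C/dxo1, 12.4, 13.5 and 10.4 CPM in rnmt1, 5.67, 6.87 and 5.20 CPM in DXO1-N/dxo1, and 16.0, 8.38 and 8.69 CPM in WT. The 3 genotypes with the dxo1 insertion were all under WT and rnmt1 overlapped it; only DXO1-C/dxo1 passed under mock (log2 fold change -0.998 ± 0.289, edgeR adjusted p = 0.037). After ABA all 3 passed, with log2 fold changes of -0.76 in dxo1, -0.54 in DXO1-C/dxo1 and -0.73 in DXO1-N/dxo1 (edgeR adjusted p = 0.000598, 0.00769 and 0.00821). MIR5642a had 6.26, 5.28 and 6.23 CPM in dxo1 and 8.29, 16.5 and 19.6 CPM in WT under mock (log2 fold change -1.34 ± 0.29, edgeR adjusted p = 0.0121), with no overlap. Its exon overlaps AT3G06325 and AT3G41762, so its reads are uncertain.

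The other microRNA genes gave few calls, and MIR822 and MIR863 were picked out after their values were seen. MIR822 was lower in dxo1 than in WT under mock (1.41, 1.33 and 2.91 CPM in dxo1 and 6.91, 4.59 and 2.78 CPM in WT, which overlapped; log2 fold change -1.36 ± 0.42, edgeR adjusted p = 0.048). MIR863, which entered the set through rnmt1, had 1.79, 1.70 and 1.68 CPM in rnmt1 and 0.638, 0.587 and 1.00 CPM in WT under mock. MIR159b, whose microRNA represses MYB factors of the ABA and gibberellin responses, MIR162a, whose microRNA targets DCL1, and MIR4228 passed in none of the 14 comparisons.

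Protein-coding short genes held the highest levels. The RPL41 genes AT3G08520 and AT3G11120 encode the smallest protein of the large ribosomal subunit. Their coding sequences are shown because counting has to separate them; the 3 positions of 78 that differ (96.2% identity) are in capitals.
AT3G08520 coding sequence (chr3:2586032-2586206, plus strand, intron removed): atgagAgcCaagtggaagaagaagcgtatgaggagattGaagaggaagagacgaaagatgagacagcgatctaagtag
AT3G11120 coding sequence (chr3:3481128-3481304, plus strand, intron removed): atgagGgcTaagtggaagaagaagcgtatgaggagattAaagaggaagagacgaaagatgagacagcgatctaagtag

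AT3G08520 averaged 202 RPKM and AT3G11120 averaged 63.2 RPKM over the 30 libraries. How reads of the near-identical coding stretch were assigned is not given in the sources used here, so both levels are uncertain. Under mock AT3G08520 had 65.5, 52.0 and 52.2 CPM in dxo1 and 51.7, 39.1 and 44.0 CPM in WT, and AT3G11120 had 28.5, 22.3 and 22.9 CPM in dxo1 and 28.4, 17.6 and 16.3 CPM in WT. Neither passed in any mutant under mock. Of the longer genes of the ribosomal-protein class, 119 of 315 tested were higher in dxo1 under mock, 114 of 315 in DXO1-C/dxo1 and 125 of 316 in rnmt1, where 13.3%, 12.5% and 10.3% of the remaining genes tested were higher. After ABA AT3G11120 passed in rnmt1 (log2 fold change 0.50 ± 0.15, edgeR adjusted p = 0.0178) and in DXO1-N/dxo1 (0.47 ± 0.11, adjusted p = 0.0235). In DXO1-N/dxo1 both RPL41 genes were higher after ABA than under mock, AT3G08520 with 64.5, 46.6 and 72.2 CPM after ABA and 50.2, 42.9 and 45.6 CPM under mock (log2 fold change 0.48 ± 0.13, edgeR adjusted p = 0.0103).

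AT1G78190 encodes a Trm112p-like protein, a kind of small subunit that in yeast activates methyltransferases acting on tRNA, rRNA and a release factor. It had 14.1, 11.8 and 13.5 CPM in dxo1, 13.6, 11.2 and 14.1 CPM in DXO1-C/dxo1, 9.31, 8.39 and 9.71 CPM in rnmt1, 10.5, 8.38 and 7.35 CPM in DXO1-N/dxo1, and 7.12, 4.48 and 4.68 CPM in WT under mock. Every mutant library exceeded every WT library. On the log2 scale these exceeded WT by 1.24 ± 0.21 in dxo1, 1.28 ± 0.22 in DXO1-C/dxo1 and 0.77 ± 0.22 in rnmt1 (adjusted p by edgeR = 0.00501, 0.00442 and 0.0397), and 0.61 ± 0.24 in DXO1-N/dxo1 (adjusted p = 0.215). After ABA all 4 mutants passed, at log2 fold changes of 0.96, 1.28, 0.93 and 0.54 in the same order. The rnmt1 call under mock held in 1 of 6 fits without a library, and those of dxo1 and DXO1-C/dxo1 in 6 of 6.

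TOM7-2 (AT1G64220), a small subunit of the mitochondrial outer-membrane import complex, was chosen after its values were seen. Under mock it had 10.5, 9.33 and 11.0 CPM in dxo1, 12.1, 10.8 and 10.7 CPM in DXO1-C/dxo1, 6.82, 5.51 and 7.27 CPM in rnmt1, 5.13, 3.90 and 6.07 CPM in DXO1-N/dxo1, and 1.44, 4.48 and 4.79 CPM in WT. WT mock replicate 1 was far under the other WT libraries, and DXO1-N/dxo1 overlapped WT. TOM7-2 differed from WT by log2 fold changes of 1.51 ± 0.36 in dxo1 and 1.69 ± 0.35 in DXO1-C/dxo1 (edgeR adjusted p = 0.018 and 0.00995), and 0.91 ± 0.36 in rnmt1 (adjusted p = 0.115). After ABA the WT libraries read 2.40, 2.55 and 1.78 CPM, all mutant libraries were above them (3.63 to 9.53 CPM), and the log2 fold changes were 2.03 in dxo1, 2.15 in DXO1-C/dxo1, 1.81 in rnmt1 and 1.03 in DXO1-N/dxo1 (edgeR adjusted p 5.66e-07 to 0.0205). The nucleolar-protein gene AT1G71740, also singled out after its values were seen, had 6.89, 8.00 and 6.48 CPM in dxo1, 8.28, 9.28 and 8.27 CPM in DXO1-C/dxo1 and 2.02, 2.83 and 1.22 CPM in WT under mock, without overlap (log2 fold changes 1.78 ± 0.28 and 2.11 ± 0.27, edgeR adjusted p = 0.00379 and 0.00129).

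The other named coding genes varied less. AT2G43550, a defensin-like cysteine-rich peptide, had 23.2, 23.2 and 25.3 CPM in dxo1 and 7.49, 20.7 and 20.3 CPM in WT under mock and did not pass (edgeR adjusted p = 0.24). After ABA it had 22.9, 21.4 and 22.3 CPM in dxo1, 29.2, 27.7 and 24.9 CPM in DXO1-C/dxo1, 31.9, 25.9 and 25.3 CPM in rnmt1 and 19.0, 17.3 and 17.5 CPM in WT, and passed in each (log2 fold changes 0.34, 0.72 and 0.72). The related AT2G43530 was lower in dxo1 than in WT after ABA (4.78, 3.64 and 4.84 CPM in dxo1 and 8.92, 8.27 and 7.84 CPM in WT; log2 fold change -0.88 ± 0.16, edgeR adjusted p = 0.000766). AT4G40042, a signal peptidase subunit of the SPC12 type, passed in all 4 mutants after ABA at log2 fold changes of 0.50 to 0.59, and in none under mock. AT2G13965, an uncharacterized protein, also passed in all 4 after ABA (0.58 to 0.81), but its exon overlaps AT2G13970 on the opposite strand. AT5G15025, a Sin3-like protein, and the cysteine-rich AT3G13403, which overlaps AT3G13404, passed in none of the 14 comparisons. AT3G07273, which overlaps AT3G07280, was lower than WT under mock in dxo1 (-0.79 ± 0.22), DXO1-C/dxo1 (-0.82 ± 0.18) and rnmt1 (-0.95 ± 0.16; edgeR adjusted p = 0.0326, 0.0133 and 0.00615). AT4G07455 was lower in dxo1 and DXO1-C/dxo1 after ABA (-0.72 and -0.61; edgeR adjusted p = 0.002 and 0.00897).

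AT2G11405 and AT1G64795, uncharacterized coding genes chosen after their values were seen, were near 0 in some genotypes and at several CPM in others. Both entered the set through the genotypes in which they were read, so a difference between genotypes was built into their selection. The first 300 of 348 coding bases of AT2G11405 and the whole coding sequence of AT1G64795 are given with start and stop codons in capitals, so that the locus behind each pattern can be examined.
AT2G11405 (chr2:4543175-4543474, plus strand): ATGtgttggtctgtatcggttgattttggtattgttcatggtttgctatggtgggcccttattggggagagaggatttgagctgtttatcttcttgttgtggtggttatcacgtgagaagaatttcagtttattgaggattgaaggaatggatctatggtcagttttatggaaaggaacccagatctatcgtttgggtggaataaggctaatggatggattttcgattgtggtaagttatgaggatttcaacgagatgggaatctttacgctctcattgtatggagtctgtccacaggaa
AT1G64795 coding sequence (chr1:24082579-24082848, plus strand, intron removed): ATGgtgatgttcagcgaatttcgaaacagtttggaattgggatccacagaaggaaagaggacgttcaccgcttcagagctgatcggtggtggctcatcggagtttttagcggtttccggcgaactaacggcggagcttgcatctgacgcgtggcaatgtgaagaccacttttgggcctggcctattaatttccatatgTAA

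AT2G11405 had 5.58, 4.78 and 5.47 CPM in dxo1 under mock and 7.99, 4.85 and 7.62 CPM in dxo1 after ABA. It had 0 counts in all libraries of DXO1-C/dxo1, DXO1-N/dxo1 and WT, and 1 count in rnmt1, in mock replicate 3. The sums were 310 counts in dxo1 and 0 in WT under mock, at least 98.0-fold higher against a floor of 3 counts over the group, and after ABA, with 0 counts in WT, dxo1 was at least 131-fold higher. DXO1-N/dxo1 was at least 108-fold lower than dxo1 under mock (0 and 310 counts). Of the nearest annotated neighbours, AT2G11271 and AT2G11462 had 0 counts in dxo1 and in WT under mock, and CRCK3 (AT2G11520) averaged 26.6 ± 1.63 CPM in dxo1 and 31.0 ± 4.97 CPM in WT.

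AT1G64795 had 3.50, 2.89 and 2.06 CPM in dxo1, 0.0493, 0.0982 and 0 CPM in DXO1-C/dxo1, 4.33, 3.25 and 3.94 CPM in rnmt1, 0.247, 0.104 and 0.183 CPM in DXO1-N/dxo1, and 0, 0.0534 and 0 CPM in WT under mock. Thus dxo1 and rnmt1 were high, DXO1-C/dxo1 was near WT, and DXO1-N/dxo1 lay slightly above it. Summed over the mock libraries, dxo1 had 165 counts and WT had 1. After ABA the sums were 205 counts in dxo1, 300 in rnmt1 and 0 in WT. With 32 counts after ABA, DXO1-N/dxo1 was at least 10.2-fold above WT, against a floor of 3 counts over the group. Its exons overlap ILA (AT1G64790) on the opposite strand, which averaged 225 ± 8.12 CPM in dxo1, 194 ± 17.8 CPM in rnmt1 and 200 ± 11.3 CPM in WT under mock. Whether reads of ILA were counted here was not tested.

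AT5G03090, a gene similar to MTO 1 RESPONDING DOWN 1 and again chosen after its values were seen, was high in rnmt1. It had 3.34, 3.53 and 3.06 CPM in rnmt1 and 0.425, 1.33 and 0.779 CPM in WT under mock, and 5.51, 4.02 and 3.16 CPM in rnmt1 and 0.427, 0.520 and 1.88 CPM in WT after ABA. The rnmt1 libraries lay above WT in both conditions, but the gene entered the set through rnmt1 and this is a description only.

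Among the 13 lncRNA and ncRNA genes, AT3G06955 separated the genotypes most. Its 203-base exon (longest open frame 21 bases) is shown as the locus of the largest decrease.
AT3G06955 (chr3:16498192-16498394, minus strand, no part marked): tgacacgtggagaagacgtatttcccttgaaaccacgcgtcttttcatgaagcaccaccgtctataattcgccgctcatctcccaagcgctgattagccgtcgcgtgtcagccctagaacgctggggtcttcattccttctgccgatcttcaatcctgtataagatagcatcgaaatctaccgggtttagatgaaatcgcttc

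AT3G06955 had 0.146, 0.167 and 0 CPM in dxo1, 0, 0.147 and 0.102 CPM in DXO1-C/dxo1, 16.4, 16.2 and 13.6 CPM in rnmt1, 0.690, 1.3 and 0.502 CPM in DXO1-N/dxo1, and 5.16, 4.65 and 6.68 CPM in WT under mock. The 3 genotypes with the dxo1 insertion were all far under WT, rnmt1 was above it, and no mutant library overlapped WT. The log2 fold changes against WT were -5.68 in dxo1, -5.91 in DXO1-C/dxo1, 1.51 ± 0.18 in rnmt1 (edgeR adjusted p = 0.00136) and -2.80 in DXO1-N/dxo1. AT3G06955 reached the level limit through rnmt1 and WT. Its lower levels than WT in the 3 genotypes with the dxo1 insertion are therefore a description only. After ABA WT had 6.09, 5.93 and 6.26 CPM, rnmt1 had 16.0, 18.3 and 17.9 CPM, and the other 3 genotypes had 0.203 to 0.736 CPM. The log2 fold changes were then -3.81, -4.24, 1.60 and -4.10 in the same order, and that of rnmt1 passed the test. It was the only short gene called between DXO1-N/dxo1 and WT under mock, in a direction tied to its selection. DXO1-N/dxo1 was higher than dxo1 under mock (log2 fold change 2.88 ± 0.72, edgeR adjusted p = 0.00858). The annotated neighbours SETH2 (29.3 ± 1.24 CPM in dxo1 and 24.8 ± 1.74 CPM in WT under mock) and AT3G45090 (31.6 ± 0.675 CPM in dxo1 and 29.0 ± 0.838 CPM in WT) did not show such a decrease.

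AT5G03285 is annotated as an ncRNA, but all 204 bases of its exon form an open frame from ATG to stop, which is why it is shown. Of the 13 lncRNA and ncRNA genes, 3 had such a frame (AT5G03285, AT1G31258 and AT3G57157).
AT5G03285 (chr5:793514-793717, plus strand, no part marked): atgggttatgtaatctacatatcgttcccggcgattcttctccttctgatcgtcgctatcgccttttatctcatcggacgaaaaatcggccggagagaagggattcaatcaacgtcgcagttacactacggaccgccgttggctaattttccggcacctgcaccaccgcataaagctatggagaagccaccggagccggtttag

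AT5G03285 had 3.25, 4.11 and 3.26 CPM in dxo1, 5.32, 5.79 and 4.59 CPM in DXO1-C/dxo1, 4.58, 3.30 and 3.06 CPM in rnmt1, 1.38, 0.677 and 1.19 CPM in DXO1-N/dxo1, and 0.213, 1.23 and 1.17 CPM in WT under mock. The first 3 genotypes were above all WT libraries, DXO1-N/dxo1 overlapped them, and WT mock replicate 1 was the lowest. Against WT they differed by 2.0 ± 0.47 on the log2 scale in dxo1, 2.62 ± 0.44 in DXO1-C/dxo1 and 2.10 ± 0.47 in rnmt1 (adjusted p by edgeR = 0.017, 0.00416 and 0.0178). After ABA WT itself was higher (3.69, 3.33 and 2.34 CPM after ABA; log2 fold change against mock 1.85 ± 0.48, edgeR adjusted p = 0.0312). Against WT after ABA, DXO1-C/dxo1 (7.62, 8.56 and 6.71 CPM) and rnmt1 (6.32, 5.46 and 7.13 CPM) passed, and dxo1 (3.68, 4.75 and 5.25 CPM) did not.

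AT3G12965 was the most abundant ncRNA (36.8, 33.3 and 32.1 CPM in dxo1, 31.8, 32.7 and 24.7 CPM in DXO1-C/dxo1, 26.9, 27.8 and 25.8 CPM in rnmt1, 22.7, 18.7 and 18.6 CPM in DXO1-N/dxo1, and 22.7, 18.3 and 18.3 CPM in WT under mock). The first 3 lay above WT, and DXO1-N/dxo1 lay within its range. Relative to WT the log2 fold changes were 0.75 ± 0.13, 0.62 ± 0.16 and 0.46 ± 0.13 (edgeR adjusted p = 0.00541, 0.0252 and 0.0431). The lncRNA AT4G06195, chosen after its values were seen, had 5.05, 5.28 and 4.92 CPM in dxo1, 7.93, 8.00 and 6.48 CPM in DXO1-C/dxo1 and 0.691, 2.40 and 1.5 CPM in WT under mock (log2 fold changes 1.70 ± 0.36 and 2.32 ± 0.35, edgeR adjusted p = 0.0118 and 0.00272). AT1G31258, read at 59.1 RPKM, passed in none of the 14 comparisons. AT2G15128 was lower than WT in dxo1 (5.97, 5.78 and 5.72 CPM) and rnmt1 (3.98, 4.57 and 6.16 CPM), against 18.8, 8.44 and 8.57 CPM in WT under mock, of which replicate 1 was the highest. DXO1-C/dxo1 (4.98 to 6.33 CPM) and DXO1-N/dxo1 (6.40 to 6.81 CPM) also lay under every WT library under mock.

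The only rRNA in the set, AT2G01020, and the coding gene AT2G01021 lie close together at the end of chromosome 2, where copies of the rDNA repeat make read placement uncertain, and the product and note of AT2G01020 name different rRNAs. AT2G01020 had 17.96, 18.7 and 19.1 CPM in dxo1 and 9.19, 11.5 and 12.5 CPM in WT under mock, and 15.2, 17.6 and 17.2 CPM in dxo1 and 5.77, 6.40 and 4.63 CPM in WT after ABA. All dxo1 libraries exceeded WT in both conditions, by 0.72 ± 0.13 and 1.61 ± 0.14 on the log2 scale (adjusted p by edgeR = 0.00708 and 1.48e-06). The other mutants overlapped WT under mock. After ABA they too lay above every WT library, at 9.67 to 14.6 CPM in DXO1-C/dxo1, 13.2 to 15.2 CPM in rnmt1 and 7.51 to 9.52 CPM in DXO1-N/dxo1. The libraries were poly(A)-enriched, and how reads of an rRNA came into them was not tested. AT2G01021 passed in no comparison; after ABA DXO1-N/dxo1 replicate 1 had 17.3 CPM, against 6.04 and 3.78 CPM in its other libraries.

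**Figure D3:**
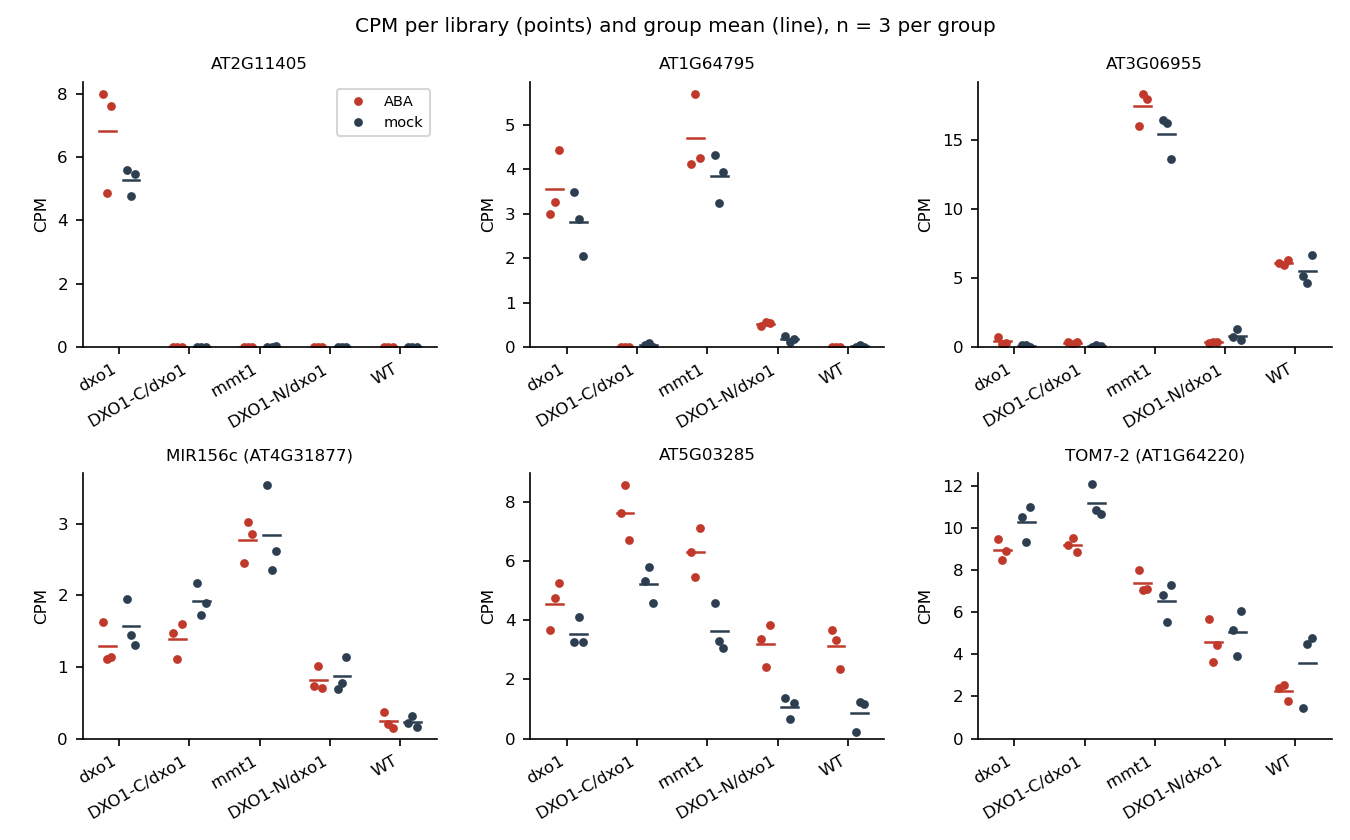
CPM per library (points) and group mean (line) for 6 short genes in the 5 genotypes, WT at the right, with ABA left of mock, n = 3 libraries per group, y axes from 0. AT2G11405 is read in dxo1, with 1 count elsewhere, AT1G64795 in dxo1 and rnmt1, AT3G06955 is near 0 in the 3 genotypes with the dxo1 insertion and highest in rnmt1, and MIR156c is lowest in WT.

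In these bulk libraries, fewer cells of a type and less RNA per cell cannot be told apart. Counted over the whole set under mock, 11 short genes were higher and 6 lower in dxo1 than in WT (17 of 87 tested, 19.5%, where 24.8% of all genes tested passed). In DXO1-C/dxo1 7 were higher and 8 lower (15 of 85, 17.6%, all genes 23.6%), in rnmt1 9 were higher and 2 lower (11 of 86, 12.8%, all genes 18.8%), and in DXO1-N/dxo1 0 were higher and 1 lower (1 of 85, 1.18%, all genes 1.60%). In DXO1-N/dxo1 against dxo1, 4 were higher and 15 lower (19 of 87, 21.8%, all genes 32.6%). The share called was thus lower among the short genes than among all genes in each of these comparisons, and the levels of the 2 sets differed. The counts include AT2G11405 in dxo1 and AT1G64795, AT5G03090 and MIR863 in rnmt1, which entered the set through those genotypes. They also include AT1G64795 in dxo1, and MIR156c in dxo1, DXO1-C/dxo1 and rnmt1, which entered through the mutants. AT3G06955, which entered through rnmt1 and WT, is among those lower in dxo1, DXO1-C/dxo1 and DXO1-N/dxo1. Among genes at a mean of 1 to 5 CPM the shares were 15.4% of short and 15.6% of remaining genes in dxo1, 14.3% and 14.3% in DXO1-C/dxo1, 9.38% and 11.1% in rnmt1, 1.59% and 0.8% in DXO1-N/dxo1, and 16.9% and 14.9% in DXO1-N/dxo1 against dxo1. At 5 CPM or more they were 31.8% and 27.9%, 27.3% and 26.5%, 22.7% and 21.1%, 0% and 1.84%, and 36.4% and 38.4% in the same order. Within a range of levels the short genes had the lower share in some of these comparisons and not in others. The comparisons against WT share the WT libraries and are not independent of each other.

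The size of the differences was larger in the short genes, whose spread was also larger. The median absolute log2 fold change under mock was 0.55 in short and 0.29 in remaining genes in dxo1, 0.44 and 0.29 in DXO1-C/dxo1, 0.39 and 0.26 in rnmt1, and 0.30 and 0.20 in DXO1-N/dxo1. Under the study's rule of an unadjusted p under 0.05 with an absolute log2 fold change over 1, here applied to edgeR's values, 16 short genes passed in dxo1 (18.4%, all genes 7.20%), 15 in DXO1-C/dxo1 (17.6%, all genes 7.40%), 11 in rnmt1 (12.8%, all genes 5.88%) and 4 in DXO1-N/dxo1 (4.71%, all genes 2.41%). The order of short and all genes therefore depended on which rule was used. The part of the low counts in these larger fold changes was not tested.

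These counts depended on single libraries. Without WT mock replicate 1 they were 30 in dxo1, 27 in DXO1-C/dxo1, 26 in rnmt1 and 5 in DXO1-N/dxo1, and the shares of all genes were then 43.7%, 40.1%, 36.8% and 14.1%. Without mock replicate 1 or 2 of dxo1 the count was 8. Without mock replicate 1 of DXO1-C/dxo1 it was 7 and without its replicate 2 it was 8. Without any 1 of the 3 rnmt1 mock libraries it was 5, and without mock replicate 1 or 3 of DXO1-N/dxo1 it was 0. The shares of all genes in these fits without a mutant library are not given here. The falls can therefore not be read as particular to the short genes.

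After ABA more short genes passed. The counts again include members that entered through groups in which they were high, among them AT1G64795 in dxo1 and MIR156c in all 4 mutants. AT3G06955, which entered through rnmt1 and WT, is among those lower in the 3 genotypes with the dxo1 insertion. In dxo1 16 were higher and 14 lower than in WT (30 of 87, 34.5%, all genes 43.7%), in DXO1-C/dxo1 18 and 10 (28 of 86, 32.6%, all genes 45.4%), in rnmt1 20 and 6 (26 of 86, 30.2%, all genes 36.3%), and in DXO1-N/dxo1 8 and 4 (12 of 86, 14%, all genes 8.00%). Among genes at 1 to 5 CPM the shares of short and remaining genes were 26.2% and 26.4% in dxo1, 23.4% and 27.8% in DXO1-C/dxo1, 21.9% and 21.8% in rnmt1, and 7.81% and 4.23% in DXO1-N/dxo1. At 5 CPM or more the share was larger in the short genes in all 4, at 59.1% and 49.4% in dxo1, 59.1% and 51.1% in DXO1-C/dxo1, 54.5% and 41% in rnmt1, and 31.8% and 9.23% in DXO1-N/dxo1, with 22 short genes in this range. The count of 12 in DXO1-N/dxo1 was 5 without its ABA replicate 1, 6 without its ABA replicate 2 and 2 without WT ABA replicate 3, with the shares of all genes in those fits not given here. Those 12 were MIR156c, AT1G71740, TOM7-2, AT2G13965, AT2G01020, AT4G40042, AT1G78190 and AT3G11120, which were higher, and AT3G06955, AT3G04175, AT1G09467 and MIR850, which were lower.

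**Figure D4:**
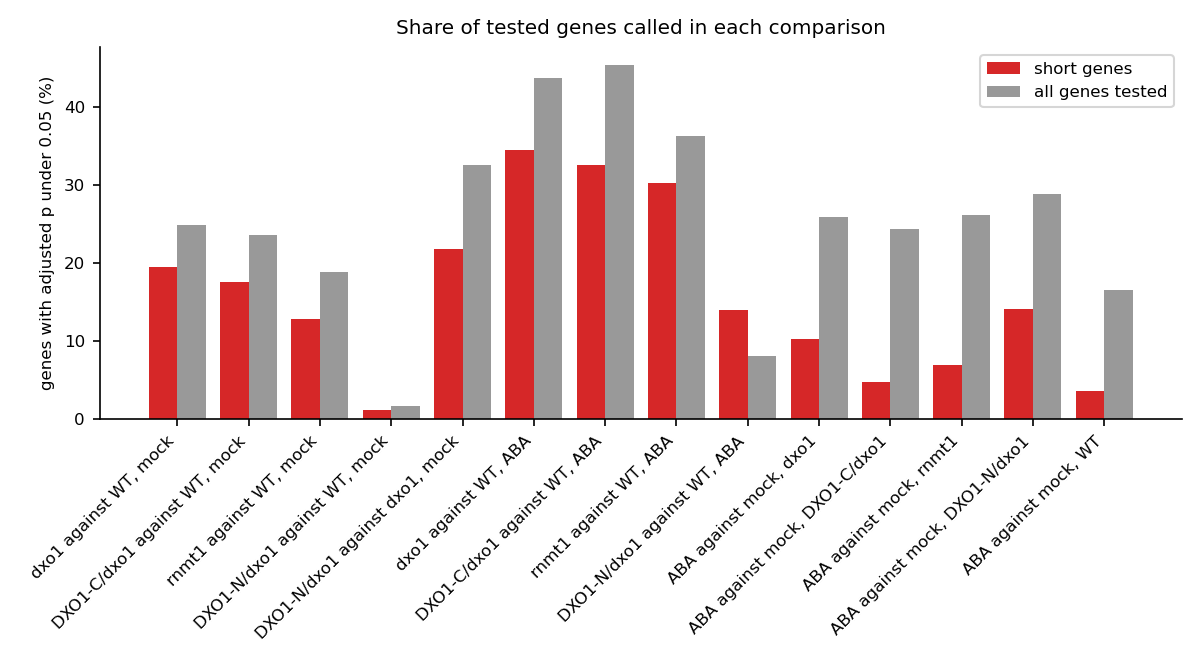
Percentage of tested genes with an adjusted p under 0.05 (y axis, from 0) in each of the 14 comparisons, as paired bars for the short genes (red) and all genes tested (grey). The short genes have the smaller share in 13 of the 14, the exception being DXO1-N/dxo1 against WT after ABA (14% and 8.00%), without regard to level.

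Few short genes responded to ABA. The counts below include AT5G54165 in all 5 genotypes and AT2G04805 in the 4 mutants, which entered the set through their ABA libraries. Against mock, 4 were higher and 5 lower in dxo1 (9 of 87, 10.3%, all genes 25.9%), 4 and 0 in DXO1-C/dxo1 (4 of 85, 4.71%, all genes 24.4%), 5 and 1 in rnmt1 (6 of 87, 6.90%, all genes 26.1%), 9 and 3 in DXO1-N/dxo1 (12 of 85, 14.1%, all genes 28.8%), and 2 and 1 in WT (3 of 85, 3.53%, all genes 16.5%). At 1 to 5 CPM a smaller share passed among the short genes than among the remaining genes, with 10.8% and 20.4% in dxo1, 6.35% and 19.8% in DXO1-C/dxo1, 7.69% and 21.6% in rnmt1, 11.1% and 23.4% in DXO1-N/dxo1, and 3.17% and 16.1% in WT. At 5 CPM or more the shares were 9.09% and 28.1%, 0% and 26.4%, 4.55% and 28%, 22.7% and 31%, and 4.55% and 17% in the same order. Of the 26 snoRNA genes, 0 were higher after ABA in any genotype, and at most 2 were lower. Single libraries moved some of these counts. Except in WT, the share of all genes in the same fit is not given beside them. In dxo1 the count was 4 without mock replicate 1 or ABA replicate 3 and 5 without ABA replicate 2. In DXO1-C/dxo1 it was 2 without mock or ABA replicate 2. In DXO1-N/dxo1 it was 6 without mock replicate 2 or 3 and 7 without ABA replicate 1 or 2, and in WT it was 7 without mock replicate 1, when 25% of all genes passed.

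AT5G54165 was named because it was called as higher after ABA in all 5 genotypes, a direction that its selection by level had built in. It is annotated as an Avr9/Cf-9 rapidly elicited protein, a name given to genes induced early in a resistance response of tobacco cells; its coding sequence is shown with start and stop codons in capitals.
AT5G54165 coding sequence (chr5:21984620-21984868, plus strand): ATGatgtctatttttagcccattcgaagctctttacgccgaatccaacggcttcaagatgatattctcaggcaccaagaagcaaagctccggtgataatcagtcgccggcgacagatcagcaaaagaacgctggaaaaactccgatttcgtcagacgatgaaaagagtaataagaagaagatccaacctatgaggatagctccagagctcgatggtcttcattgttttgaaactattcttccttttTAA

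AT5G54165 had 1.37, 1.90 and 2.63 CPM after ABA and 0.0971, 0.222 and 0.201 CPM under mock in dxo1, and 4.76, 4.53 and 3.67 CPM after ABA and 0.106, 0.107 and 0 CPM under mock in WT. After ABA it had 2.95, 3.19 and 2.90 CPM in DXO1-C/dxo1, 3.96, 1.53 and 3.46 CPM in rnmt1 and 2.89, 3.46 and 5.56 CPM in DXO1-N/dxo1, and no mock library of any genotype exceeded 0.377 CPM. Every ABA library was above every mock library. The log2 fold changes by ABA were 3.52 in dxo1, 4.19 in DXO1-C/dxo1, 3.59 in rnmt1, 4.93 in DXO1-N/dxo1 and 5.78 in WT. The gene reached the level limit through its ABA libraries. A rise by ABA was thus built into its selection, and these values are a description only. After ABA dxo1 was lower than WT, without overlap (log2 fold change -1.10 ± 0.26, edgeR adjusted p = 0.00389). Its exon overlaps AT5G54170 on the opposite strand, which averaged 43.0 ± 2.72 CPM after ABA and 35.9 ± 2.25 CPM under mock in dxo1 and 63.1 ± 3.92 CPM after ABA and 61.4 ± 4.33 CPM under mock in WT (SD, n = 3 libraries each).

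**Figure D5:**
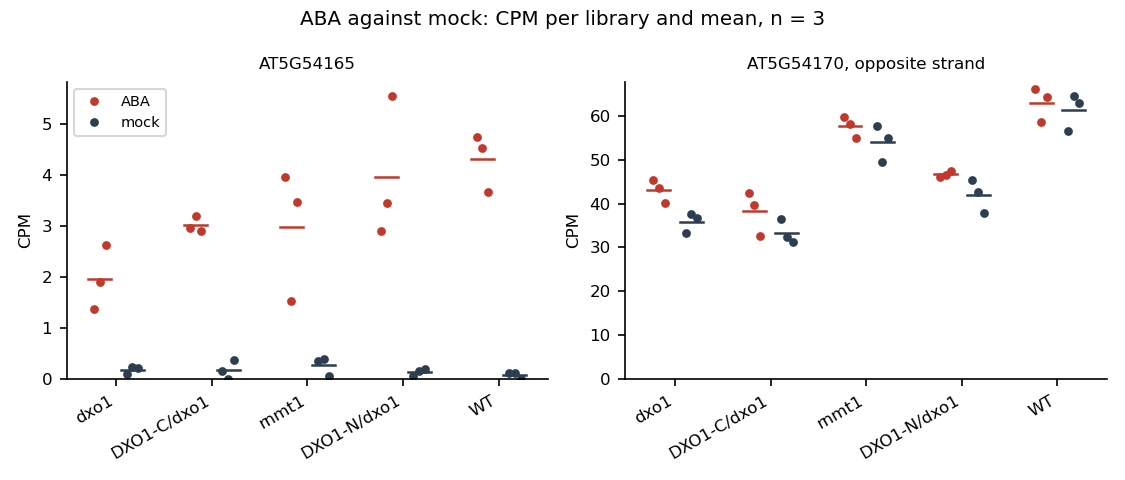
CPM per library (points) and group mean (line) of AT5G54165 on the left and of AT5G54170, on the opposite strand, on the right, for the 5 genotypes with WT at the right, ABA in red and mock in dark blue, n = 3 libraries per group; y axes start at 0 and differ in scale. AT5G54165 is under 0.4 CPM in all mock libraries and at 1.37 CPM or more in all ABA libraries, and AT5G54170 shows no change of that size.

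A second responder, the lncRNA AT2G04805, was noted after its values were seen. It had 1.31, 1.32 and 1.65 CPM after ABA and 0.825, 0.722 and 0.251 CPM under mock in dxo1, and 2.37, 2.10 and 2.75 CPM after ABA and 0.986, 0.260 and 0.776 CPM under mock in DXO1-N/dxo1. The libraries of the 2 conditions did not overlap in any genotype, and the log2 fold changes were 1.3 in dxo1, 1.13 in DXO1-C/dxo1, 1.13 in rnmt1 and 1.88 in DXO1-N/dxo1. In WT it was 1.51. Mock means were 0.600 CPM in dxo1, 0.828 in DXO1-C/dxo1, 1.15 in rnmt1, 0.674 in DXO1-N/dxo1 and 0.632 in WT. AT2G04805 thus reached the level limit through its ABA libraries, and this rise is a description only.

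Whether the ABA response itself differed between a mutant and WT was tested as an interaction over the 12 libraries of each pair. By edgeR, 0 of 88 short genes passed in dxo1 (6 at an unadjusted p under 0.05; all genes 0.272%), 0 of 86 in DXO1-C/dxo1 (4 unadjusted; all genes 0.233%), 0 of 87 in rnmt1 (4 unadjusted; all genes 0.126%) and 0 of 86 in DXO1-N/dxo1 (9 unadjusted; all genes 0%). The rRNA gene AT2G01020 came nearest in dxo1 and rnmt1, with differences of responses (mutant minus WT) of 0.90 ± 0.19 and 1.21 ± 0.23 on the log2 scale (edgeR adjusted p = 0.0789 and 0.0775). For AT5G54165 the difference was -2.24 ± 0.85 in dxo1 (edgeR adjusted p = 0.386). The smaller ABA response of AT5G54165 in dxo1 was therefore not separated from WT by this test.

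Over all 14 comparisons, 54 of the 88 short genes (61.4%) passed at least once and 34 never did, where 76.7% of all genes tested passed at least once. At a mean of 1 to 5 CPM the shares were 56.1% of short and 65.4% of remaining genes. The 54 include members that entered through a group in which they were high, such as AT2G11405, AT1G64795, MIR156c and AT5G54165. By class the 54 were 6 of 9 microRNA genes, 9 of 13 lncRNA and ncRNA genes, 11 of 26 snoRNA genes, 15 of 22 hypothetical or unnamed proteins, 7 of 11 other proteins, 2 of 3 cysteine-rich peptides, both RPL41 genes, TOM7-2 and the rRNA gene.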

How the data were processed

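RNA-seq of 30 libraries (10 groups of 3 biological replicates) was analysed from raw gene counts. According to the submitters' processing notes and the study's methods, the authors checked reads with FastQC 0.11.8, aligned them to TAIR10 with HISAT2 2.2.1 and made the deposited counts with featureCounts (Subread 2.0.8). The annotation release and the strand and multi-mapping settings are not given in the sources used here. Reads shared by overlapping genes or near-identical copies may therefore have been split or dropped.

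Members and lists were chosen with earlier results of these data known. Counts were tested per comparison (6 libraries) with edgeR 4.0.16 in R 4.3.3, with TMM scaling, its filter on low counts, the quasi-likelihood test and Benjamini-Hochberg adjustment over all genes tested; 0.05 was the threshold. The ABA responses of a mutant and WT were compared as an interaction over 12 libraries. Level values are CPM without TMM scaling. The floor was 3 counts over a group. Scripts were tested on simulated data.

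The genes named were the 10 with the highest mean CPM; those called in 1 direction in dxo1, DXO1-C/dxo1 and rnmt1 under mock without overlap (at most 8 each way); those called by ABA in all 5 genotypes without overlap; those called in DXO1-N/dxo1 in both conditions (at most 5); and the 3 most abundant of each class of at least 3, with the genes nearest the limits. Others are marked as chosen after their values were seen. Alternatives were DESeq2 1.42.0, other scaling and filters, a length correction, a replicate block, 1 fit over 30 libraries, the study's threshold, leaving out each library and, added after the data were seen, leaving out overlapping members. Sequences were read from the TAIR10.1 genome of RefSeq, whose exon lengths equal those in the files for all 88 genes.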

Additional observations from a re-analysis of the deposited data

How the results depend on the processing

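Counts of short genes called moved by over 1.5 times in the following cases, and the cause was not tested. The share of all genes called is not given beside these counts. The moves can therefore not be read as particular to the short genes. DESeq2 called 5 for ABA against mock in WT (main 3), 5 in dxo1 (main 9) and 4 for DXO1-N/dxo1 against WT under mock (main 1). With the length trend removed, DXO1-N/dxo1 against WT after ABA gave 7 (main 12). A single fit over 30 libraries gave 33 in dxo1, 28 in DXO1-C/dxo1, 27 in rnmt1 and 11 in DXO1-N/dxo1 against WT under mock, and 13 for ABA in WT. The study's threshold gave 12 in dxo1, 13 in DXO1-C/dxo1 and 15 in rnmt1 against WT after ABA, 9 for DXO1-N/dxo1 against dxo1, 4 for DXO1-N/dxo1 against WT under mock, and 5 each for ABA in dxo1, DXO1-N/dxo1 and WT. Without members that overlap another gene, an alternative chosen after seeing the data, ABA in DXO1-C/dxo1 gave 2 (main 4). Leaving out 1 library gave 8 to 30 in dxo1, 7 to 27 in DXO1-C/dxo1, 5 to 26 in rnmt1 and 0 to 5 in DXO1-N/dxo1 against WT under mock, 2 to 12 in DXO1-N/dxo1 after ABA, and for ABA against mock 4 to 8 in dxo1, 2 to 4 in DXO1-C/dxo1, 6 to 14 in DXO1-N/dxo1 and 2 to 7 in WT. The other counts stayed within 1.5 times. The 18 pairs of a gene and a comparison followed through the alternatives had been picked for their calls or after their values were seen. They include AT2G11405 in dxo1 and AT1G64795 and AT5G03090 in rnmt1, which entered the set through those genotypes. None reversed (of the values so obtained, 214 kept their side of the threshold and 20 lost it), which given that choice is no support for them. In no comparison did the correlation of deviations exceed 0.1 in all 3 pairs of same-numbered libraries (the lowest was -0.0473), so the replicate numbers were not taken to pair them. With a replicate block the mock counts against WT were 16 in dxo1, 13 in DXO1-C/dxo1, 8 in rnmt1 and 1 in DXO1-N/dxo1. Among all genes 4262, 4195, 2968 and 294 then passed in the same order, against 4962, 4697, 3761 and 321 in the main fits. At 1 CPM a library held 20.01 counts on average.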
